A study of Mus musculus with 4 samples.

Results

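The genes described here are Gad1, Gad2, Slc32a1 and Abat, which make, package and break down GABA. They were taken by symbol from the deposited gene list, where they are 4 of 32285 genes, and each symbol matched a single gene. Their levels were followed from progenitors to neurons and across neuron clusters of the embryonic mouse medial ganglionic eminence (MGE), in cells with at least 3000 UMIs (unique molecular identifiers, each a counted RNA molecule) and at most 10% mitochondrial UMIs.

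GABA is the main inhibitory transmitter of the forebrain. It is made from glutamate by glutamate decarboxylase, whose isoforms are the products of Gad1 and Gad2, and the vesicular transporter encoded by Slc32a1 loads it into synaptic vesicles. Abat encodes GABA transaminase, the mitochondrial enzyme that breaks GABA down, so that the label of this gene group, synthesis, packaging and transport, leaves out what Abat is known for. The MGE is a ventral germinal zone whose progenitors divide next to the ventricle and give rise to GABAergic interneurons and projection neurons, and to cholinergic neurons.

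The MGE of e14.5 embryos had been profiled by single-cell RNA sequencing in 10x Genomics droplets. Of the 4 libraries, 2 carry the label St18(-/-), here null, and 2 the label WT. The null allele was present in the whole animal, and null and wild-type embryos came from heterozygous parents on a C57/BL6 and ICR mix. MGE was pooled by genotype before dissociation, so that a library holds cells of several embryos, and nothing in the labels says how many. The comparison of null with WT addresses whether loss of St18, a zinc finger transcription factor, changes which cells the MGE makes and what they express. The study describes the 2 libraries of a genotype as biological replicates. For null against WT, p-values rest on the spread between libraries of the same genotype. For neurons against progenitors, they rest on how the difference within a library varies between the 4 libraries.

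The rule kept 6631 and 3878 cells of the null libraries and 4511 and 4011 of the WT libraries, with a median of 6186 to 9352 UMIs. After 764 likely doublets were left out, 10115 cells fell in neuron-like clusters and 7797 in progenitor-like clusters, called neurons and progenitors below. Pairs of libraries shared 4 to 11 cell barcodes. The MGE genes Lhx6 and Nkx2-1 were at 350 to 514 and 278 to 306 CPM (counts per 1e6 UMIs) in the neurons of the 4 libraries. St18 was highest in the neurons of the library labelled null replicate 2 (77.2 CPM) and lowest in null replicate 1 (25.1 CPM), with WT replicate 1 at 44.5 CPM and WT replicate 2 at 59.1 CPM between them. The study reports that St18 transcript was still found in null samples, at significantly lower levels in neurons than in WT. Over the summed neurons here, null minus WT for St18 was -0.19 on the log2 scale (SE 0.36). The null allele lacks a pair of internal exons, and these counts do not tell them from the rest of the transcript. The St18 level here thus does not settle the labels. The spread within null was also wider than within WT, with a chi-square per degree of freedom of 25.01 against 3.58 in neurons. Cells with at least 3 Xist UMIs and no UMI of 4 Y-linked genes made up 31.5% and 64.6% of the null neurons and none of the 2461 and 2220 WT neurons. Directions of null against WT below follow the labels.

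In GRCm38, Gad1 (ENSMUSG00000070880) lies on chromosome 2 from 70553072 to 70602014, and Gad2 (ENSMUSG00000026787) on the same chromosome from 22622205 to 22693874. Slc32a1 (ENSMUSG00000037771) lies on chromosome 2 from 158610767 to 158615748, and Abat (ENSMUSG00000057880) on chromosome 16 from 8513429 to 8621568. All 4 are protein-coding genes on the plus strand in the GENCODE M21 annotation. The antisense genes that overlap Gad1 and Slc32a1, Gad1os and Gm14205, summed to 22 and 47 UMIs over all neurons, against 10142 for Gad1 and 7757 for Slc32a1; whether the counting used strand is not given in the sources used here.

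The 250 bases before the transcription start given by RefSeq were examined because these genes rise together in neurons, and 3 of the 4 members have an entry in the RefSeq promoter table (GRCm38.p6). Bases that lie in an annotated exon of the gene itself are not printed, which leaves the following stretches on the plus strand. Capitals mark matches to CANNTG, the core read by bHLH factors such as the proneural proteins, and to TATAAA read on either strand; the homeodomain core TAATTA was searched too.
Gad1, chr2:70561879-70562041: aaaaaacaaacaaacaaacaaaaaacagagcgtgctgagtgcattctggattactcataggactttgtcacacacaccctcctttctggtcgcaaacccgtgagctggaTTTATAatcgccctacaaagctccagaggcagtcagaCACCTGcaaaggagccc
Gad2, chr2:22622077-22622204: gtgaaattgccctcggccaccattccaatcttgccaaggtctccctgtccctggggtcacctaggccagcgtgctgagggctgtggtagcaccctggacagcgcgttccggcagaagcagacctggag
Slc32a1, chr2:158610508-158610757: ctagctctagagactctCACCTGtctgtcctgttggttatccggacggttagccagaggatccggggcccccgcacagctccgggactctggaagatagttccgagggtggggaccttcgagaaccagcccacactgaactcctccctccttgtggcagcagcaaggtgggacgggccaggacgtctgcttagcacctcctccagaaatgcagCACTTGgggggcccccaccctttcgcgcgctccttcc

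Over the full 250 bases, the Gad1 window held 1 match to CANNTG, 104 bases before the start, and 1 to TATAAA on the minus strand. The Gad2 window held 1 match to CANNTG, 76 bases before the start and in the part that is not printed, and the Slc32a1 window held 2, at 233 and 37 bases. None of the 3 windows held TAATTA. Windows of the same length before all 32851 promoters of the table held CANNTG in 66.2%, TATAAA in 12.4% and TAATTA in 4.84%, so that a match to CANNTG is common and is given as a description of the letters only.

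All 4 genes were higher in neurons than in progenitors. For the synthesis enzyme Gad1, the level in progenitors was 34.3 and 45.7 CPM in null replicates 1 and 2 and 25.3 and 27.1 CPM in WT replicates 1 and 2. In neurons Gad1 was at 164 and 182 CPM in the null libraries and at 128 and 115 CPM in the WT libraries. The lowest neuron value was thus far above the highest progenitor value, and the ratio within a library ran from 3.98 to 5.07.

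Gad2, the isoform associated with synaptic terminals, was at 119 and 137 CPM in null progenitors and at 125 and 120.1 CPM in WT progenitors. In neurons it was at 521 and 566 CPM in the null libraries and at 569 and 518 CPM in the WT libraries. The ratio of neurons to progenitors was 4.34 ± 0.172 (SD, n = 4 libraries), the narrowest spread relative to its mean among the 4 genes.

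The vesicular transporter Slc32a1 was at 36.5, 37.2, 28.9 and 31.4 CPM in the progenitors of null replicates 1 and 2 and WT replicates 1 and 2, in this order. In the neurons of the same libraries it was at 129, 121, 114 and 90.4 CPM. WT replicate 2 held the lowest neuron value and its ratio of neurons to progenitors, 2.88, was below the 3.26 to 3.94 of the other libraries.

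Abat was at 39.98 and 52.9 CPM in null progenitors and at 36.2 and 39.7 CPM in WT progenitors. In neurons it was at 84.0 and 109 CPM in the null libraries and at 86.5 and 82.5 CPM in the WT libraries. The library labelled null replicate 2 was the highest in both classes, and the other 3 lay close together. Its ratio of neurons to progenitors was 2.15 ± 0.158 (SD, n = 4 libraries), below the ratio of each of the other 3 genes in every library.

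In the fit over all genes with library as a covariate, the log2 fold change of neurons over progenitors was 2.11 (SE 0.047) for Gad1, 2.06 (SE 0.033) for Gad2, 1.71 (SE 0.055) for Slc32a1 and 1.04 (SE 0.042) for Abat. All 4 passed the threshold of 0.05 (adjusted p from 2.03e-18 to 1.83e-13, edgeR's quasi-likelihood test, Benjamini-Hochberg adjusted), and each was higher in neurons in 4 of 4 libraries. The classes differ broadly, and 40.5% of the 14296 genes tested were called higher in neurons, and 39.5% lower, so that the call itself says little and the size of the change is the result. The 4 genes and the other genes of the pathway were kept out of the genes that defined the clusters, but the classes still come from the same cells.

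**Figure D1:**
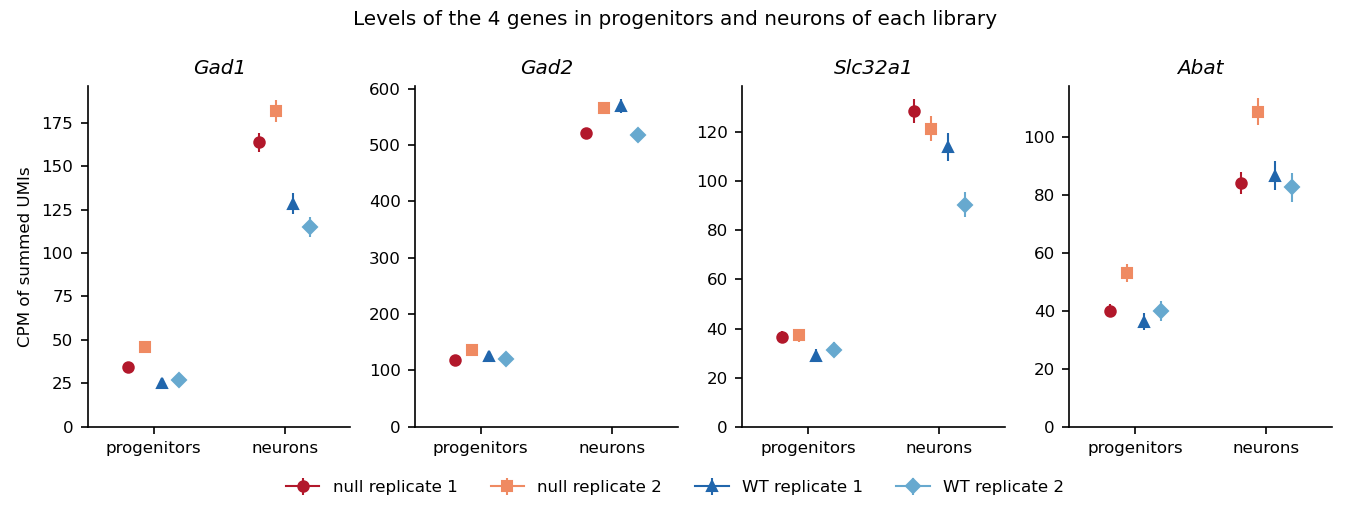
Level of each gene (CPM of UMIs summed over the cells of a class, linear axis from 0) in progenitors and neurons of the 4 libraries; bars are exact 95% Poisson intervals, which cover counting error only. Gad1 rose from 25.3 to 45.7 CPM in progenitors to 115 to 182 CPM in neurons, and no progenitor value of any of the 4 genes reached a neuron value.

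The share of cells with at least 1 UMI of a gene depends on depth, so every cell was thinned to 3000 UMIs. Of the neurons, 33.6% ± 4.67 (SD, n = 4 libraries) then held a Gad1 UMI, against 9.33% ± 2.36 of the progenitors. Gad2 was seen in 71.4% ± 1.66 of neurons and 28.2% ± 0.946 of progenitors, Slc32a1 in 28.5% ± 3.83 and 9.64% ± 0.896, and Abat in 22.5% ± 2.78 and 11.3% ± 1.87. The difference was positive in 4 of 4 libraries for each gene (exact sign-flip permutation test, two-sided, p = 0.125, the smallest that 4 libraries allow). Without thinning, where median depth was 5976 UMIs in neurons and 9039 in progenitors, the shares were 53.3% and 21.2% for Gad1, 86.5% and 48.3% for Gad2, 49.5% and 23.9% for Slc32a1 and 39.6% and 29.6% for Abat.

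Cell types that should lack these genes were taken as a guide to stray RNA, and they gave no single level. Of 152 erythroid cells thinned to the same depth, 0.658% held a Gad1 UMI, 3.95% a Gad2 UMI, 0.658% an Slc32a1 UMI and 1.32% an Abat UMI. Of 107 microglia, whose median depth was 9135 UMIs before thinning, 8.41% held Gad1 and 20.6% held Gad2, which is closer to the progenitors. Barcodes with under 100 UMIs, taken as droplets without a cell, carried Gad2 at 251 to 291 CPM, and the share of the progenitors' UMIs that came from such RNA was not tested.

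In thinned cells, UMIs of the pathway's genes were seen together only in part, and such shares depend on depth. A Gad1 UMI was held by 33.6% of neurons after thinning and by 53.3% without it (means of 4 libraries). For Slc32a1 the shares were 28.5% and 49.5%. A cell without a UMI of a gene may thus still express it. How many neurons express only part of the pathway was not tested. After thinning, a UMI of Gad1 or Gad2 was held by 79.9% and 83.3% of null neurons (replicates 1 and 2) and by 81.1% and 78.3% of WT neurons. Both Gad genes were seen in 26.9% and 27.8% of null neurons and in 22.9% and 19.96% of WT neurons. Slc32a1 was held by 33.2%, 30.1%, 28.6% and 24.0% of the neurons with a Gad UMI in null replicates 1 and 2 and WT replicates 1 and 2, and by 29.99%, 25.6%, 28.9% and 20.8% of those without. In progenitors the shares differed, with Slc32a1 in 14.7% to 16.7% of the cells with a Gad UMI and in 5.23% to 7.56% of those without, over the 4 libraries.

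To follow the members between the classes, cells were ordered by the neuron share of their marker UMIs, the UMIs of 7 neuron markers over those of 7 neuron and 10 progenitor markers, and split into 5 bins of equal width. In the lowest bin, where 0.185% of the cells were neuron-like, Gad1 was at 7.20 ± 3.04 CPM, Gad2 at 32.7 ± 6.42 and Slc32a1 at 8.61 ± 1.85 (SD, n = 4 libraries). In the second bin, in which 2.02% of the cells were neuron-like, they were already at 44.0, 164 and 48.0 CPM. The synthesis enzymes and the vesicular transporter thus increased together within the progenitor end of the order, in every library.

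Gad1, Gad2 and Slc32a1 were higher again in the third bin, at 71.0, 264 and 63.3 CPM in this order, and parted after the fourth. Gad1 peaked in the fourth bin, at 157 ± 33.7 CPM, and was lower in the fifth, at 135 ± 29.5 CPM, a drop seen in each of the 4 libraries. Gad2 went on rising, from 457 ± 44.2 CPM in the fourth bin to 564 ± 26.3 CPM in the fifth, and Slc32a1 levelled off at 109 and 112 CPM. Abat was at 37.2 ± 8.28 CPM in the lowest bin and 41.1 ± 8.52 CPM in the next, and reached 90.6 and 87.3 CPM in the last 2 bins. The lowest bin held 42.6% of the top bin's level for Abat, against 5.32%, 5.80% and 7.71% for Gad1, Gad2 and Slc32a1. The bins are a description of the cells as sorted by other genes and are not a time course. They may also differ in cell types, since neuron types differed in their marker levels. In the first clustering, the cluster led by Ebf1 and Isl1 had a mean neuron marker score of 0.94. The cluster led by Npy, Rprm and Maf was at 0.27, and that led by Epha5 and Maf at 0.42. The part of cell types in the levels of the bins was not tested.

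**Figure D2:**
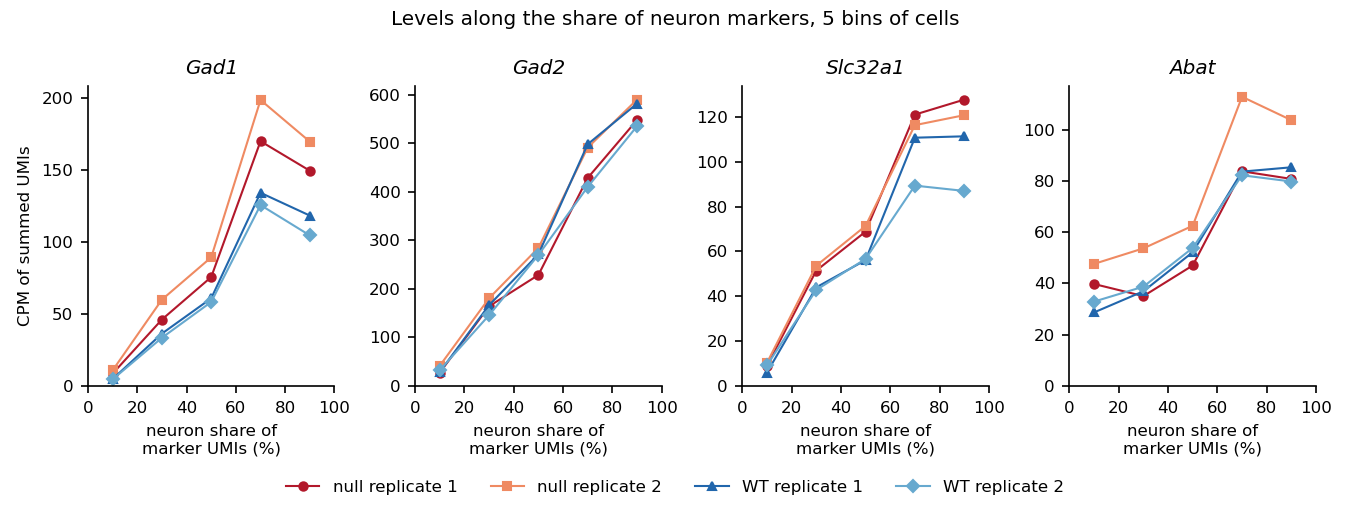
Level of each gene (CPM, linear axis from 0) in 5 bins of cells by the neuron share of their marker UMIs (%), one line per library. Gad1 fell from the fourth to the fifth bin in all 4 libraries while Gad2 rose, and Abat started at 37.2 CPM on average in the lowest bin.

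Progenitor clusters showed where the low end lies. Clusters are given by number with their leading genes, and levels across them are a description, since they were made from the same cells. In the 4 progenitor clusters with radial glia markers (clusters 3, 6, 9 and 12), mean Gad1 ran from 3.41 to 10.7 CPM, Gad2 from 14.6 to 38.1 CPM and Slc32a1 from 3.73 to 7.73 CPM. The erythroid cells, for comparison, were at 1.70, 10.7 and 2.83 CPM, and the microglia, at 19.7, 65.5 and 16.7 CPM, were above the range of the radial glia-like clusters. Among the other progenitor clusters, 7 for Gad1, 8 for Gad2 and 9 for Slc32a1 were above the highest radial glia value in each of the 2 to 4 libraries that had at least 20 of their cells.

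The highest progenitor levels of the synthesis enzymes were in cluster 4 (leading genes Hist1h2bc, Mir124a-1hg and Ripor2), at 93.1 ± 25.5 CPM for Gad1 and 312 ± 49.5 CPM for Gad2 (SD, n = 4 libraries). Maf, Gm14204 and Myt1l were also among its 10 leading genes. In the first clustering, the cluster led by Hist1h2bc was near the border between the classes, with mean marker scores of -0.024 for neuron and -0.0047 for progenitor. With doublets kept, the cluster led by Hist1h2bc was classed as neuron, so that the class of such cells is not firm. Cluster 5, led by St18, held Gad1 at 81.1 ± 30.2 and Gad2 at 279 ± 32.7 CPM, and cluster 0, led by Nav2 with Lhx6 among its leading genes, at 74.5 ± 17.6 and 229 ± 9.55 CPM. The dividing-like cluster 10 (Tuba1c, Gas2l3, Ube2c and Aspm) held Gad1 at 71.4 ± 19.2 CPM, Gad2 at 251 ± 21.96 CPM and Slc32a1 at 64.4 ± 14.6 CPM. The ranges over libraries of these 4 clusters overlapped for Gad1 and Slc32a1, while for Gad2 cluster 0 lay below clusters 4 and 5. Among other clusters with cell cycle genes among their leading genes the levels differed widely. Cluster 2 (Dll1, Pttg1, Cdc20 and Ccnb2) held Gad1 at 44.3 ± 22.2 CPM, Gad2 at 193 ± 20.3 CPM and Slc32a1 at 57.3 ± 13.2 CPM, and overlapped cluster 10 for Gad1 and Slc32a1. Cluster 11 (Hbb-bs, Tuba1c, Cdc20 and Ube2c) held Gad1 at 5.94 ± 1.46 CPM, Gad2 at 55.7 ± 14.6 CPM and Slc32a1 at 9.89 ± 1.94 CPM. Cluster 1, led by histone genes, held Gad1 at 6.62 ± 1.78 CPM, Gad2 at 68.6 ± 8.29 CPM and Slc32a1 at 15.95 ± 3.71 CPM, so that Gad1 in clusters 11 and 1 was within the range of the radial glia-like clusters and Gad2 near the level of the microglia.

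Abat had another order in progenitors. Its highest mean was in the radial glia-like cluster 9, which was led by Bcan, Fabp7, Apoe, Sparcl1 and Slc1a3, genes known from glial precursors and astrocytes. There Abat ran from 76.1 to 116 CPM over the 4 libraries (SD 16.3), and its range did not overlap that of cluster 5, the next in order, at 62.1 ± 7.83 CPM. In the same cluster Gad1 was at 10.7 ± 3.60 CPM and Slc32a1 at 7.73 ± 3.16 CPM, within the low range of the radial glia-like clusters. The other radial glia-like clusters held Abat at 30.3 to 49.5 CPM.

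Across the 22 neuron clusters the 4 genes had different orders. Clusters 0, 2, 3, 16 and 18 are among them, although progenitor or dividing markers outnumbered neuron markers among their 10 leading genes, such as Vim in clusters 2 and 3 and Mki67 and Top2a in clusters 16 and 18. Without these 5 clusters, a setting chosen after seeing the data, the log2 fold change of neurons over progenitors was 1.97 for Gad1 and 2.13 for Gad2. Gad1 ran from 33.2 ± 15.1 CPM in cluster 19 to 249 ± 39.5 CPM in cluster 6 (SD, n = 4 libraries), a 7.49-fold range of means. The order from the top was the CGE-like cluster 6 (Lgi1, Nfix, Htr3a and Nr2f2), cluster 0 (Neb, Epha4 and Plxna4) at 222 ± 26.1 CPM, and the cortical interneuron precursor-like cluster 5 (Mef2c, Maf and Erbb4) at 194 ± 37.9 CPM. No neighbours in this order were apart, in that the ranges over libraries of all 21 neighbouring pairs overlapped, but 17 of the clusters lay wholly below the range of cluster 6 and 18 wholly above that of cluster 19.

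Gad2 followed a different order. It was highest in the LGE-like cluster 7 (Ebf1, Zfp503 and Isl1), at 998 ± 87.1 CPM, and in cluster 11 (C130073E24Rik, Cdh11 and Rgma), at 960 ± 64.0 CPM. These clusters overlapped each other and lay above all others, the next being cluster 12 at 755 ± 19.8 CPM. The lowest was again cluster 19, at 282 ± 76.2 CPM, with 200 to 383 CPM over the libraries. The cortical interneuron precursor-like clusters 1 and 5, in which Gad1 was among the higher levels, held Gad2 at 382 ± 36.8 and 439 ± 22.4 CPM, in the lower part of its order.

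Slc32a1 was at mean levels of 100.3 to 147 CPM in 15 of the 22 clusters. Cluster 20 (Six3 and Tshz2) had the highest mean, at 147 ± 36.5 CPM, and its range overlapped that of 13 other clusters. At the low end, cluster 19 was at 30.7 ± 10.6 CPM and the next, cluster 12, at 57.6 ± 10.1 CPM, and these 2 were apart. Both carry markers of ventral telencephalic and cholinergic neurons, as does cluster 8, where Slc32a1 was at 129 ± 14.7 CPM. Cluster 19, which was lowest for Gad1, Gad2 and Slc32a1, was led by Slc10a4, Zic4, Gbx2 and Zic1 and had Slc18a3, the vesicular acetylcholine transporter, among its 10 leading genes.

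Abat was highest in cluster 8 (Pde1a, Lypd6, Zic1 and Lhx8), at 158 ± 25.9 CPM, cluster 21 (Lmo1, Prdm13 and St18), at 158 ± 14.6 CPM, cluster 4 (Shh, Lhx8 and Zic1), at 151 ± 30.2 CPM, and cluster 12 (Adarb2, Kctd8 and Gbx1), at 143 ± 20.3 CPM. Their ranges overlapped. Zic1 and Lhx8 were among the 10 leading genes of clusters 8 and 4, and Gbx1 among those of cluster 12. The lowest levels were in the LGE-like cluster 15 (Crabp1, Nefl and Isl1), at 40.7 ± 16.1 CPM, and in clusters 14, 20 and 7, at 45.9 to 49.5 CPM. Cluster 19, lowest for the other 3 genes, was seventh for Abat at 89.9 ± 16.4 CPM.

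**Figure D3:**
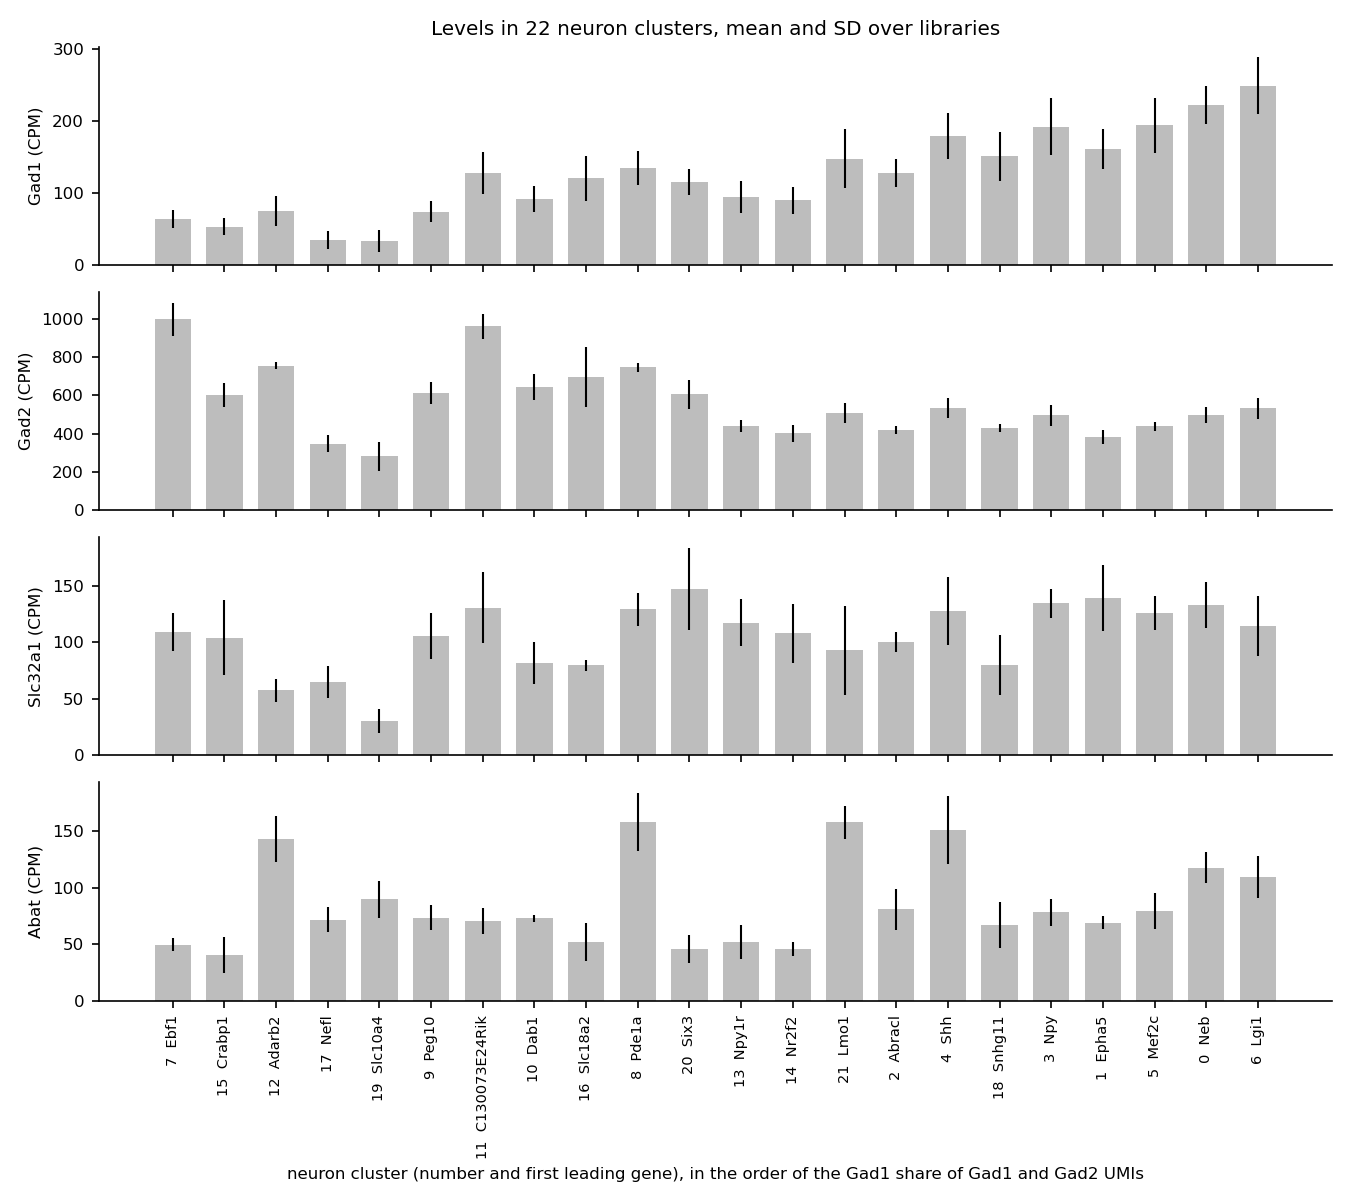
Mean level (CPM, linear axis from 0) of the 4 genes in the 22 neuron clusters, with bars for the SD over 3 or 4 libraries; clusters are placed by the Gad1 share of Gad1 and Gad2 UMIs, lowest on the left. Gad1 was highest in cluster 6, at 249 CPM, and Gad2 in cluster 7, at 998 CPM. Their places at opposite ends are partly built in, since the order is made from these genes.

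The balance of the isoforms can be read as the share of Gad1 among the UMIs of Gad1 and Gad2 in a cluster. This ratio does not depend on scaling or on the other genes. Its level is not the molar share of Gad1, since the UMI counts of different genes are not comparable per molecule, and it is compared only with itself, between clusters, classes and genotypes. It was 21.2% ± 3.36 (SD, n = 4 libraries) over all neurons and 20.7% ± 3.71 over all progenitors. Among neuron clusters it was lowest in the LGE-like clusters 7 and 15, at 6.01% ± 0.985 and 8.12% ± 1.52, and in cluster 12, at 8.97% ± 2.42. The third LGE-like cluster, 13, was higher, at 17.5% ± 3.22, with 14.6% to 21.1% over the libraries. It was highest in cluster 6, at 31.9% ± 4.53, cluster 0, at 30.9% ± 2.95, and the cortical interneuron precursor-like clusters 5 and 1, at 30.5% ± 5.003 and 29.7% ± 4.33. The highest value of any library in cluster 7 was 6.75%, and the lowest in cluster 6 was 25.9%.

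**Figure D4:**
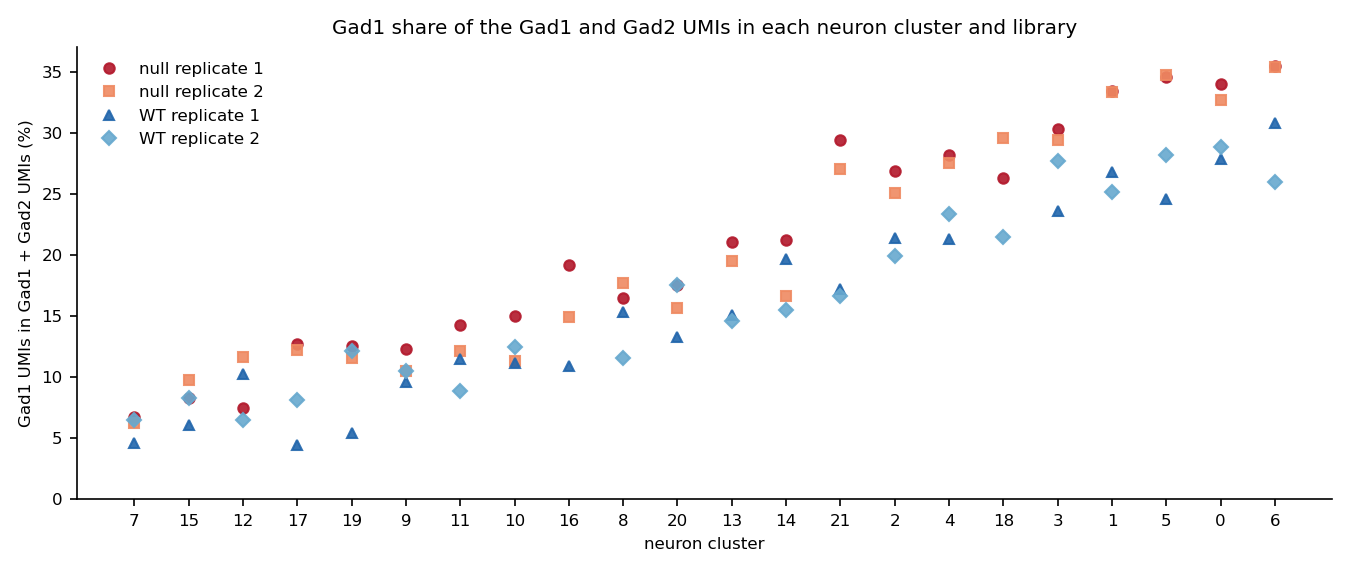
Share of Gad1 among the UMIs of Gad1 and Gad2 (%, axis from 0) in each neuron cluster, one point per library with at least 20 cells of the cluster. The share ran from 6.01% on average in cluster 7 to 31.9% in cluster 6, and in 14 of the 20 clusters with 4 libraries both null points lay above both WT points, as they did for 24.6% of all ratios of a gene to Gad2 summed over the same clusters.

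Over all 38 neuron and progenitor clusters with enough cells, mean levels of the members went together on a scale of log2(CPM + 10), with Pearson's r of 0.88 for Gad1 and Gad2, 0.94 for Gad1 and Slc32a1 and 0.94 for Gad2 and Slc32a1. Abat was less alike, at 0.68, 0.57 and 0.57 with Gad1, Gad2 and Slc32a1. Within the 22 neuron clusters alone, r was 0.096 for Gad1 and Gad2 and 0.67 for Gad1 and Slc32a1. These values describe clusters that share libraries and depth.

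The gene most like both Slc32a1 and Gad1 across the 38 clusters, among 6003 genes that reached 50 CPM in some cluster, was Gm14204, with r of 0.97 and 0.95. Gm14204 (ENSMUSG00000086496) is annotated as a processed transcript on the minus strand of chromosome 2, from 158595472 to 158610723, so that its start lies 44 bases from that of Slc32a1, head to head, and the Slc32a1 window printed above overlaps its exons. It was at 305, 320, 321 and 287 CPM in the neurons of null replicates 1 and 2 and WT replicates 1 and 2, and at 71.7, 85.1, 69.4 and 79.8 CPM in progenitors. Its log2 fold change of neurons over progenitors was 1.96 (SE 0.047), and within neuron clusters r with Slc32a1 was 0.84. Within neuron clusters its r with Gad1 was 0.71. The members themselves were left out of this ranking. Among the other genes, the next for Gad1 were Scrt1, a neuronal zinc finger repressor, at 0.93 and Nbea, which takes part in membrane traffic, at 0.92, with r of 0.62 and 0.76 within neuron clusters. For Gad2 they were the neuronal tubulin Tubb3, Soga3 and the neuroblast microtubule protein Dcx at 0.95 each, but 0.16, 0.36 and 0.18 within neuron clusters. For Slc32a1 they were, again without the members, Dcx at 0.95 and Atcay at 0.94, and 0.53 and 0.56 within neuron clusters. For Abat they were Trp53inp1, Elmo1 and Uqcc3, at 0.78, 0.77 and 0.76, and 0.75, 0.64 and 0.57 within neuron clusters. Tubb3 and Dcx belong to the neuron markers that set the classes.

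Null was then compared with WT in neurons. Gad1 was at 173 ± 12.7 CPM in null and 122 ± 9.46 CPM in WT neurons (SD, n = 2 each), with both null libraries above both WT libraries. On the log2 scale, null minus WT was 0.35 (SE 0.12) for Gad1, short of the threshold (adjusted p = 0.184, edgeR's quasi-likelihood test, Benjamini-Hochberg adjusted). Gad2 was at 543 ± 31.7 CPM in null and 543 ± 35.9 CPM in WT, with overlapping groups and a log2 fold change of -0.15 (SE 0.12), or 0.00060 with library totals in place of TMM scaling. Slc32a1 was at 125 ± 5.10 and 102 ± 16.6 CPM, with a log2 fold change of 0.14 (SE 0.14), and Abat at 96.3 ± 17.4 and 84.5 ± 2.82 CPM, with 0.034 (SE 0.13).

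None of the 4 genes was called between null and WT in neurons, where 0.399% of 13542 genes were called, by edgeR or by DESeq2; at an unadjusted p under 0.05, edgeR had 1 of the 4, Gad1, against 17.8% of all genes. In CPM, both null libraries were above both WT libraries for Gad1 and Slc32a1, as they were for 42.7% of all genes tested in neurons. In progenitors the same held for Gad1, Slc32a1 and Abat, and for 48.1% of all genes, so that a separation by label in CPM is common in these libraries.

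In progenitors, Gad1 was at 34.3 and 45.7 CPM in null and at 25.3 and 27.1 CPM in WT, and null was higher by 0.41 on the log2 scale (SE 0.13, adjusted p = 0.209, edgeR's quasi-likelihood test, Benjamini-Hochberg adjusted). Gad2, Slc32a1 and Abat had log2 fold changes of -0.13 (SE 0.11), 0.10 (SE 0.11) and 0.091 (SE 0.13). The sign for Gad2 comes from the TMM scaling, since its mean was 128 CPM in null and 123 CPM in WT and the log2 fold change was 0.062 with library totals. None was called, against 0.0147% of 13575 genes, by either tool, and Gad1 was again the 1 gene of the 4 with an unadjusted p under 0.05, against 16.9% of all genes. The difference between the classes in the response to genotype was tested as an interaction, and none of the 4 was called, against 0.741% of 14296 genes, with none at an unadjusted p under 0.05 and none called by DESeq2. The interaction was -0.015 (SE 0.092) on the log2 scale for Gad1.

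For Gad1 the call between null and WT changed when 1 library was left out. Without null replicate 1, null exceeded WT by 0.40 in neurons on the log2 scale (adjusted p = 0.00727) and 0.55 in progenitors (adjusted p = 0.000415, both from edgeR's quasi-likelihood test, Benjamini-Hochberg adjusted), a fit in which the lone null library, the one with the highest St18 level, is assumed to vary like the others. The same fits called 22.1% of all genes in neurons and 30.4% in progenitors, so that a call of Gad1 there says little about this gene. With library totals in place of TMM factors, Gad1 was called in neurons, at a log2 fold change of 0.51 (adjusted p = 0.0364, edgeR's quasi-likelihood test, Benjamini-Hochberg adjusted), a scaling that moved the median of all genes by 0.14 on the log2 scale and called 4.07% of them.

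Other measures were set beside the Gad1 difference, and they did not all go the same way. Cluster 0, with the second highest Gad1 level and the progenitor gene Sox2 among its 10 leading genes, held 13.2% and 23.5% of the neurons of null replicates 1 and 2 and 5.40% and 5.45% of those of WT replicates 1 and 2. Cluster 3 (Npy, S100a10 and Rnd2, with the progenitor gene Vim among its 10 leading genes), which had the fourth highest Gad1 level at 192 ± 39.2 CPM, went the other way, at 5.16% and 0.943% of null and 17.8% and 15.3% of WT neurons. With equal numbers of cells of each cluster in the 4 libraries the log2 fold change was 0.22 (SE 0.11), and without the 5 neuron clusters led by progenitor or dividing markers it was 0.40 (SE 0.13). Barcodes with under 100 UMIs carried Gad1 at 63.6 and 63.1 CPM in the null libraries and at 46.6 and 44.6 CPM in the WT libraries. Male cells alone gave a log2 fold change of 0.38 for neurons, and of 0.17 for progenitors. The part of cluster make-up, stray RNA or sex in the difference was not tested further.

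Within clusters, null was compared with WT in the 10 neuron clusters with at least 50 cells in every library. Of the 40 combinations of gene and cluster, 0 were called by edgeR, where 0.366% of all genes summed over the clusters were, and 3 had an unadjusted p under 0.05, against 10.1% of all genes summed in the same way: Gad1 in clusters 1 and 5 and Slc32a1 in cluster 1. The log2 fold change of Gad1 was positive in 10 of 10 clusters, from 0.20 to 0.44 with a median of 0.29. In cluster 12 it turned from 0.26 to -0.053 without null replicate 2 and to -0.13 without WT replicate 2. Gad2 was negative in 8 of 10, from -0.22 to 0.15, and Slc32a1 and Abat were positive in 8 of 10 each, with medians of 0.20 and 0.051. The clusters share the 4 libraries and are not independent replicates.

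**Figure D5:**
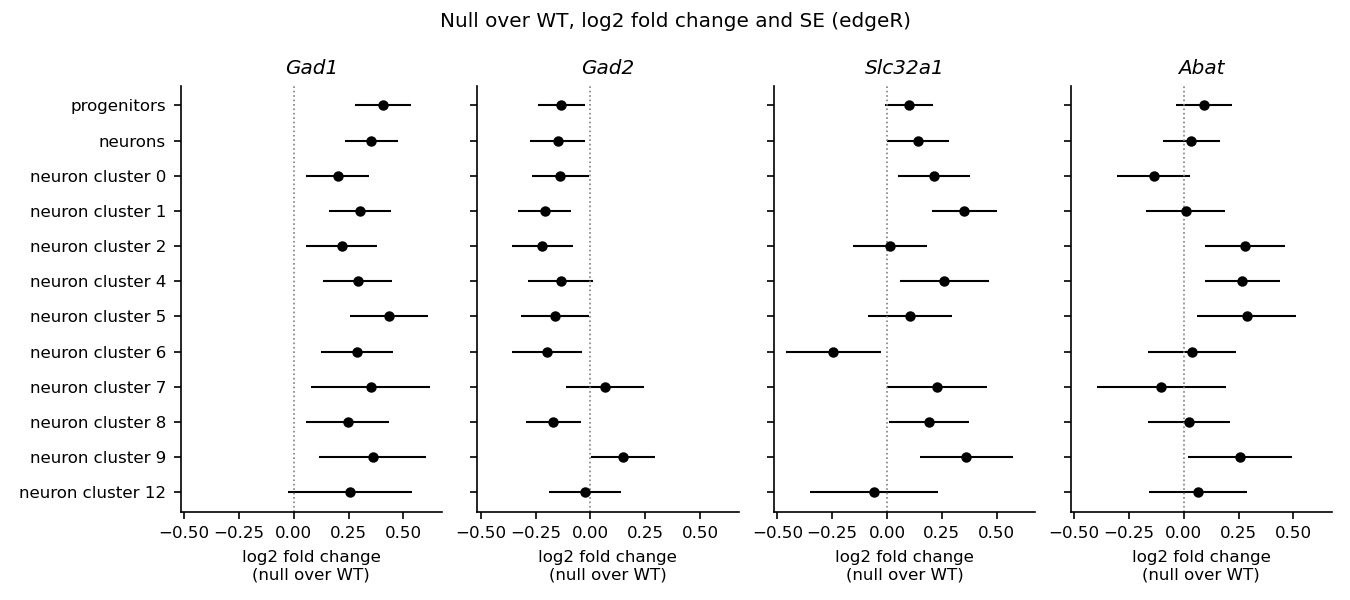
Log2 fold change of null over WT with its SE (edgeR) for each gene in all progenitors, all neurons and the 10 neuron clusters tested; the dotted line marks no difference. Gad1 lay right of the line throughout, from 0.20 to 0.44 in the clusters, and no value passed the threshold.

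The Gad1 share of Gad UMIs, which is free of library scaling, was 23.9% and 24.3% in the neurons of null replicates 1 and 2 and 18.4% and 18.2% in those of WT replicates 1 and 2. In progenitors it was 22.4% and 25.01% in null and 16.9% and 18.4% in WT. The groups did not overlap in either class. By cluster, both null values were above both WT values in 14 of the 20 neuron clusters and 8 of the 12 progenitor clusters with 4 libraries, and below in none, with a median difference of 3.93 and 6.24 percentage points. Of the 5 progenitor clusters among them in which Gad1 was above the 19.7 CPM of the microglia, 4 were separated in this way. Such separation is common over a whole class, since the ratio to Gad2 of any gene with at least 10 UMIs had both null values above both WT values for 40.5% of the genes in neurons and 42.5% in progenitors. By cluster, the same held in 24.6% and 32.6% of the combinations of gene and cluster summed over the same neuron and progenitor clusters. Those combinations go down to 10 UMIs over the 4 libraries and are not matched to Gad1 in depth. Clusters of the same libraries are not independent, and the counts are a description. Libraries of 2 against 2 cannot reach an exact two-sided permutation p below 0.333, and no other test was made of this share.

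The wider pathway was read from a list of 38 genes, of which 32 could be tested between neurons and progenitors. Of these, 13 were higher in neurons, 17 lower and 2 not called by edgeR's quasi-likelihood test, where 40.5% of all genes were higher and 39.5% lower, with a median log2 fold change of -0.16 against 0.017 for all genes. Of the genes that act after Abat in breakdown, Aldh5a1, the succinic semialdehyde dehydrogenase, was lower in neurons (-0.72) and so was the reductase Akr7a5 (-0.81).

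Of the 11 genes that supply glutamate and glutamine, 5 were higher in neurons and 6 lower, counts near the 40.5% and 39.5% of all genes. The glial glutamate transporter Slc1a3 had the largest of the lower values (-3.80), and Slc1a2 (1.25), the glutamine carrier Slc38a1 (0.27) and Got1 (0.12) were higher. Slc38a2 (-0.24), the glutamine synthetase Glul (-0.20), Got2 (-0.15) and Glud1 (-0.14) were lower. On the putrescine route to GABA, Odc1 (-0.94) and Aldh9a1 (-1.64) were lower, while Sat1 was at -0.16 and did not pass (adjusted p = 0.063, edgeR's quasi-likelihood test, Benjamini-Hochberg adjusted).

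Slc18a2, the vesicular monoamine transporter, was lower in neurons (-1.20), from 64.3 to 28.8 CPM. The chloride importer Slc12a2 was lower as well (-1.19), from 54.5 to 24.5 CPM. Of the transcription factors upstream of GABAergic fate, Dlx5 (0.97) and Dlx6 (0.68) were higher in neurons, and Dlx1 (-0.64) and Dlx2 (-0.25) were lower. Between null and WT, none of the list was called by edgeR in neurons (5 of 30 at an unadjusted p under 0.05, against 17.8% of all genes), in progenitors (3 of 29, against 16.9%) or as an interaction (5 of 32, against 8.56%). By DESeq2, 0 were called in neurons, 1 in progenitors (Slc1a3, 0.53 on the log2 scale, adjusted p = 0.0338) and 0 as an interaction. Slc1a3 did not pass in progenitors by edgeR's quasi-likelihood test (adjusted p = 0.132, Benjamini-Hochberg adjusted). Calls over all genes in progenitors ran from 0 to 874 under the 9 alternative settings, with DESeq2 among them. The share of all genes that DESeq2 called is not given here, so that the call of Slc1a3 cannot be judged against it.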

How the data were processed

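Single-cell RNA sequencing of e14.5 MGE was analysed from the deposited gene by barcode counts, which the authors made with Cell Ranger (5.0.1 per the submitters' processing notes, 4 per the file headers) on GRCm38. These are raw UMI counts without normalization; no depth or cell filter had been applied to the deposited matrices. Totals were 70991150 to 92984713 UMIs per library.

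Barcodes were kept from 3000 UMIs and 200 genes upward if mitochondrial UMIs did not exceed 10%. Scrublet (scanpy 1.11.5) called at most 4 doublets in a library on its own threshold, which had not worked, so the cells with the highest scores were removed at a rate of 0.8% per 1000 cells. Cells were clustered in Seurat 5.3.0 (2000 variable genes less the 4 members and the 38 pathway genes, cell cycle difference regressed out, 49 principal components, resolution 1.4) and classed as neurons or progenitors from 7 and 10 markers; each class was clustered again, and clusters with at least 3 markers of a type were named X-like. A name was given only where a single type had the most markers. Clusters in which markers of the other class outnumbered their own among the 10 leading genes were left unnamed. MGE neurons and pallidal neurons were not among the types that could be named. Such rebuilt names may differ from the study's. Levels are CPM of UMIs summed per library and class or cluster, with at least 20 cells per library for a level and 50 for a test.

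Sums were tested with edgeR 4.0.16 (TMM, filterByExpr, quasi-likelihood F-test, Benjamini-Hochberg over all genes, threshold 0.05) in R 4.3.3, with library as a covariate for neurons against progenitors; DESeq2 1.42.0 was an alternative. Scripts were tested on simulated counts. Genes named are the 4 members, pathway genes whose mean reached 10 CPM in either class, the 3 genes most like each member across clusters among those reaching 50 CPM, and St18, Xist and Y-linked genes for a check of the libraries; some pathway genes that meet this rule are counted but not reported here by name; Gm14205, Gad1os, Lhx6, Nkx2-1 and the leading genes of clusters were named for the annotation and the identity of cells. Intervals and floors cover counting error only. Members, lists and tests were chosen with earlier results of these data known. Promoters came from RefSeq (GRCm38.p6) and gene positions from GENCODE M21, in which 32158 of 32285 gene IDs were found.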

Additional observations from a re-analysis of the deposited data

How the results depend on the processing

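The rise of all 4 genes from progenitors to neurons kept its direction and passed the threshold under 11 other settings and without each library in turn. The log2 fold change ran from 2.06 to 2.16 for Gad1, 2.04 to 2.07 for Gad2, 1.65 to 1.78 for Slc32a1 and 1.01 to 1.07 for Abat when a library was left out, and without the replicate block it was 2.10, 2.06, 1.71 and 1.05. No paired analysis was possible because the replicate numbers of null and WT libraries follow accession order and pair nothing; the part of the design on protein sequences was not run. Sums of 2 libraries a genotype limit the comparison of null with WT, and every change of sign below was of a value that did not pass the threshold. The cause of these changes was not tested.

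With library totals in place of TMM, 1 member (Gad1, 0.51) was called in neurons, Gad2 turned to 0.00060 in neurons and 0.062 in progenitors, and the interaction turned to -0.059 for Gad2 and -0.00096 for Slc32a1. At 5000 UMIs, Abat in neurons turned to -0.0069 and the interaction of Gad1 to 0.0014. With classes from marker scores, Slc32a1 in progenitors turned to -0.033 and the interaction of Gad1 to 0.11. In male cells, Slc32a1 in progenitors turned to -0.036 and the interaction to 0.21 for Gad1 and 0.093 for Abat. The interaction of Gad2 turned to -0.014 in DESeq2, -0.088 without the filter on low counts, -0.11 with doublets kept and -0.075 in thinned cells; that of Slc32a1 turned to -0.031 without the filter and -0.032 with doublets kept. Without clusters near the border, a choice added after seeing the data, the interaction of Gad1 was 0.079.

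Leaving out a library, 0 to 1 members were called in neurons and 0 to 1 in progenitors (Gad1 without null replicate 1), and 0 to 1 of the combinations within clusters: Gad2 in cluster 2 at -0.28 without null replicate 1 (adjusted p = 0.0347, edgeR), where 1005 of 9266 genes were called against 83 of 8915 with all libraries, and Slc32a1 in cluster 4 at 0.50 without null replicate 2 (adjusted p = 0.0438, edgeR), where 349 of 8865 were called against 5 of 8297. The ranges were 0.26 to 0.45 for Gad1, -0.23 to -0.066 for Gad2, -0.032 to 0.33 for Slc32a1 and -0.10 to 0.18 for Abat in neurons; 0.27 to 0.55 for Gad1, -0.17 to -0.094 for Gad2, 0.042 to 0.15 for Slc32a1 and -0.048 to 0.23 for Abat in progenitors; and for the interaction -0.21 to 0.12 for Gad1, -0.082 to 0.064 for Gad2, -0.14 to 0.32 for Slc32a1 and -0.13 to 0.084 for Abat. The median within clusters ran from 0.20 to 0.33 for Gad1, -0.18 to -0.080 for Gad2, 0.084 to 0.23 for Slc32a1 and -0.078 to 0.23 for Abat, and of 40 fits of a cluster without a library the sign turned in 2, 1, 7 and 11 in this order. Over all genes, calls between null and WT moved from 54 to 1 to 611 in neurons (45 to 3009 without a library), from 2 to 0 to 874 in progenitors (43 to 4184) and from 106 to 13 to 164 for the interaction (63 to 192).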

Other observations

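The 4 genes were also measured in the small groups of other cells, summed over the 4 libraries and given with exact 95% Poisson intervals in parentheses. In 63 pallial cells Gad1 was at 7.76 CPM (2.85 to 16.9), Gad2 at 29.8 (18.9 to 44.7), Slc32a1 at 3.88 (0.8005 to 11.3) and Abat at 23.3 (13.8 to 36.8). In 33 oligodendrocyte precursor cells Gad1 was at 5.15 CPM (0.623 to 18.6), Gad2 at 7.72 (1.59 to 22.6), Slc32a1 at 2.57 (0.0651 to 14.3) and Abat at 5.15 (0.623 to 18.6). The 107 microglia had Gad1 at 19.7 CPM (12.96 to 28.6), Gad2 at 65.5 (52.7 to 80.6), Slc32a1 at 16.7 (10.6 to 25.1) and Abat at 28.4 (20.2 to 38.8), and the 152 erythroid cells had Gad1 at 1.70 CPM (0.350 to 4.96) and Gad2 at 10.7 (6.47 to 16.8). The libraries differed in this, since Gad2 in microglia ran from 14.9 CPM in WT replicate 1 to 118 CPM in null replicate 2, Slc32a1 was at 0 CPM (0 to 13.8) in the microglia of WT replicate 1, and the erythroid cells of that library held Gad2 at 13.3 CPM. The source of the transcripts in microglia was not tested.

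In radial glia-like cluster 9, where Abat was highest among progenitors, the Gad1 share of Gad1 and Gad2 UMIs was 34.2% ± 7.58 (SD, n = 4 libraries), above the 20.7% ± 3.71 of all progenitors. Radial glia-like cluster 6 was at 28.5% ± 14.1 (SD, n = 4 libraries), and radial glia-like clusters 3 and 12 were at 17.2% and 18.2%. Basal progenitor-like cluster 14 was at 36.0%, from 5.26% and 66.7% in 2 libraries. In cluster 9 Gad1 was at 10.7 CPM and Gad2 at 20.7 CPM, so that few UMIs stand behind its share.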
